A study of Mus musculus with 2 samples.

Results

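Tbx21 and Gata3 encode T-bet and GATA3, the transcription factors that direct CD4 T cells to the T helper 1 (Th1) and T helper 2 (Th2) fates. Their loci were examined in chromatin immunoprecipitation libraries of STAT3 and STAT5 from T helper 17 (Th17) cells, a helper class known for IL-17. The 2 genes were taken by position on mm9: Tbx21 in a window on chromosome 11 from 96920000 to 97020000, and Gata3 in a window on chromosome 2 from 9480000 to 9900000. Within them lay 56 of the 86150 sites found over all nuclear chromosomes, 14 at Tbx21 and 42 at Gata3. A site here is a stretch enriched for reads of STAT3, of STAT5 or of both.

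Both libraries came from wild type C57BL/6J mice. Naive CD4 T cells of spleen and lymph nodes, sorted as CD4+CD44-CD62L+, were cultured for 3 days on antibodies to CD3 and CD28. The culture held TGF-beta (2 ng/ml) and IL-6 (20 ng/ml), and antibodies against IL-2 and IL-4 are also listed for it. The STAT3 cells were then restimulated with IL-6 at 40 ng/ml, and the STAT5 cells with IL-2 at 200 IU/ml, for 30 minutes before fixation, so antibody and cytokine differed together and their parts cannot be told apart. For STAT5, an antibody to STAT5A and another to STAT5B were used together. There was 1 library per antibody and no control library was analysed here, and how many mice gave the cells is not stated. Every comparison therefore lacks a replicate check, no p-value is given, and intervals cover counting error only. DNA of this kind carries no expression level, so the Th17 label could not be checked against marker genes.

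STAT proteins are latent factors that are phosphorylated at cytokine receptors, form dimers and bind DNA. STAT3 carries signals of IL-6 and is needed for the Th17 programme, whereas STAT5 carries signals of IL-2, restrains Th17 cells and supports the Th1 and Th2 fates. T-bet drives the gene for interferon-gamma in Th1 cells. GATA3 drives the genes for IL-4, IL-5 and IL-13 in Th2 cells and is also needed earlier, for T cells to develop at all. Each gene has distal control elements: Tbx21 has an upstream enhancer that answers to IL-12 through STAT4, and a T cell enhancer of Gata3 lies far past the end of the gene.

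The libraries held 20784388 STAT3 and 17963766 STAT5 reads on nuclear chromosomes. Reads were 25 nt long, with at most 1 per position and strand, so a window of 200 bp can hold at most 400. Levels are in RPM, the reads in 200 bp scaled to the total of nuclear reads of the library. Both genes lie on the minus strand, and distances run from the upper end of an approximate gene position, about 96977000 for Tbx21 and 9800000 for Gata3. They are good to about 1 kb. RefSeq gives Gata3 a span of 30.9 kb on another build, against about 22 kb here, so some sites placed before its start can lie within longer transcripts. For Tbx21 the spans are 17.3 kb and about 18 kb.

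The promoters are shown as the sequence at the 2 gene starts. Each line gives 250 bases before the RefSeq start, 5′ to 3′ along the gene, on the minus strand of GRCm38.p6, at chr11:97115332-97115581 for Tbx21 and chr2:9878601-9878850 for Gata3. Capitals mark TTCC on either strand, letters that can overlap the STAT motif.
Tbx21: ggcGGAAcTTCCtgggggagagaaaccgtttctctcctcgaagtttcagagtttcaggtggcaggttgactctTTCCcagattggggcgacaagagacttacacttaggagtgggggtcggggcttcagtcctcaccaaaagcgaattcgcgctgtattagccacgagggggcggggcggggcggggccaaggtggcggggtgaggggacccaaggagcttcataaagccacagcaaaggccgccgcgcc
Gata3: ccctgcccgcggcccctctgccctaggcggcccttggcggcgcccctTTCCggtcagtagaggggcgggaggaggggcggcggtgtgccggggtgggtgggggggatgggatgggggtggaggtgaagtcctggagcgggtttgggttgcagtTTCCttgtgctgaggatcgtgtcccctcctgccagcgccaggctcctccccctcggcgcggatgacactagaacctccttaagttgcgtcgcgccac
The full STAT motif TTCNNNGAA, which reads the same on both strands, matched neither stretch, and it was found in 7.02% of 32851 RefSeq promoter stretches of this length. TTCC, which can overlap the first arm of that motif, matched 3 times in the Tbx21 stretch and 2 times in the Gata3 stretch, and 93.4% of all promoter stretches hold it on one strand or the other. The GATA core, 4 letters sought on both strands, matched neither, against 53.6% of all. The stretches are rich in G and C, at 60.8% for Tbx21 and 70.0% for Gata3. The read positions are on mm9 and were not converted, so no read is placed on these letters, and the distal sites are given without sequence.

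Tbx21 carried 1 dominant site with many reads of both STATs, about 11.4 kb before its start, and no site whose 95% interval of the ratio lay wholly beyond 2-fold for either antibody. No Gata3 site reached the STAT3 height of that site, with at most 123 reads against 290. Gata3 had a chain of tall STAT5 sites far past its end, several of them nearly without STAT3. Summed over the sites, STAT5 RPM was 1.18 times the STAT3 RPM at Tbx21 (95% interval 1.07 to 1.31) and 2.58 times at Gata3 (2.41 to 2.76). These sums include sites that entered through 1 antibody alone, which were 5 of STAT3 only and 1 of STAT5 only at Tbx21, and 7 and 20 at Gata3. Over the sites that were regions of both antibodies the ratios were 1.33 (1.19 to 1.48) at 8 Tbx21 sites and 2.24 (2.05 to 2.44) at 15 Gata3 sites. The median ratios of these sites were closer, at 0.910 and 1.23, and 4 of the 15 had an interval wholly beyond 2-fold for STAT5.

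**Figure D1:**
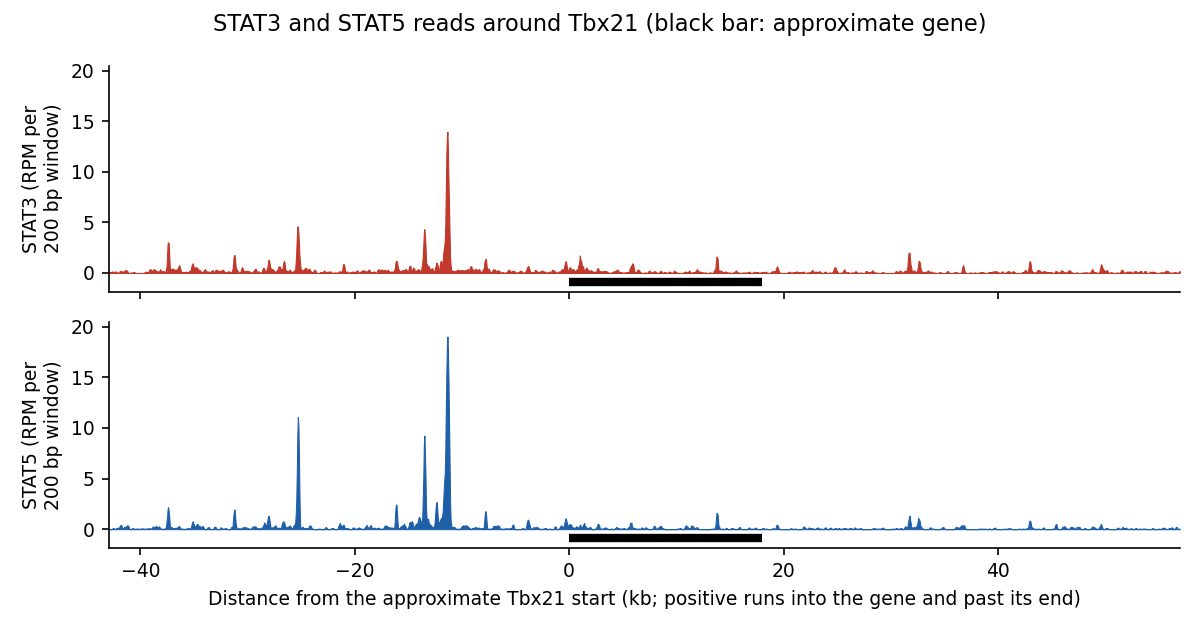
STAT3 (top) and STAT5 (bottom) RPM in 200 bp windows moved by 50 bp, against the distance in kb from the approximate start of Tbx21. Positive distances run into the gene (black bar) and past its end. The tallest site, 11.4 kb before the start, reaches 14.0 RPM of STAT3 and 19.0 RPM of STAT5, and the gene itself carries low levels of both.

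The tallest Tbx21 site lay on chromosome 11 from 96988101 to 96988600. Its best window held 290 STAT3 and 342 STAT5 reads, that is 14.0 and 19.0 RPM. In height it stood at the 99.5th percentile of all sites for STAT3 and the 98.7th for STAT5. The ratio of STAT5 to STAT3 RPM was 1.36 (1.16 to 1.60), which did not reach the 2-fold limit used for a call. Reads filled 342 of the 400 possible positions for STAT5, and a correction for positions already taken gave a ratio of 1.73. Along the gene's direction in steps of 50 bp, the STAT3 reads over the 500 bp around its centre numbered 10, 21, 55, 89, 81, 55, 65, 47, 17 and 8. Those of STAT5 numbered 24, 28, 63, 98, 88, 77, 79, 73, 31 and 9, a broad shape with its highest bin in the same place. Strands were balanced, with 151 of the 290 STAT3 reads and 169 of the 342 STAT5 reads on the plus strand.

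The next Tbx21 sites were also upstream. About 25.3 kb before the start, from 97002051 to 97002550, there were 95 STAT3 and 199 STAT5 reads, 4.57 and 11.1 RPM. This was the Tbx21 site with the highest ratio, 2.42 (1.89 to 3.13), just short of a call. It was called higher with STAT5 when the libraries were scaled by 10 kb bins without a region (3.35) or corrected for positions taken (2.94). Sites 31.2 and 37.4 kb before the start held 37 and 63 STAT3 reads against 35 and 39 STAT5 reads, with ratios of 1.09 (0.669 to 1.79) and 0.716 (0.468 to 1.08).

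A further tall peak 13.5 kb before the Tbx21 start was left out of the 14 sites by the calling rule. Regions had to stand over a local mean that includes their neighbours, and this peak lies 2.15 kb from the tallest site. With the genome-wide mean alone it was a region of both antibodies, from 96990001 to 96991200, where 166 STAT5 reads met 90 of STAT3, a ratio of 2.13 (1.64 to 2.79). In STAT5 reads only the sites 11.4 and 25.3 kb before the start exceeded it at this gene. That alternative raised the sites at Tbx21 from 14 to 25, and all 11 added peaks lay before the gene start, with 13 to 90 STAT3 and 2 to 166 STAT5 reads.

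Around the Tbx21 start itself levels were low. The site nearest to it, about 0.30 kb before the start, from 96977201 to 96977450, showed 24 reads of STAT3 and 19 of STAT5, a ratio of 0.916 (0.474 to 1.74). It was a region for STAT5 only, although the STAT3 count was no lower. A site about 1.00 kb into the gene, from 96975901 to 96976100, held 36 STAT3 reads and 8 STAT5 reads, so that STAT3 RPM was 3.89 times (1.78 to 9.69) the STAT5 RPM. It was called higher with STAT3 when counted over 400 bp (43 against 8 reads) or with exact matches only (36 against 6). About 13.7 kb into the gene 34 STAT3 reads met 29 of STAT5, a ratio of 0.987 (0.580 to 1.67). The remaining site within the gene, 5.90 kb in and picked out after its values were seen, had 20 STAT3 and 3 STAT5 reads.

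The 5 Tbx21 sites before the start summed to 509 reads of STAT3 and 634 of STAT5, a ratio of 1.44 (1.28 to 1.62). The 3 sites in the gene summed to 90 and 40 reads (ratio 0.514, 0.345 to 0.754), and the 6 sites past its end to 139 and 79 (0.658, 0.492 to 0.873). Of these, 2 of the 3 and 3 of the 6 were regions of STAT3 only, so their entry favoured low ratios. The site of both antibodies in the gene had a ratio of 0.987 (0.580 to 1.67), and the 3 past the end, with 91 STAT3 and 57 STAT5 reads, one of 0.725 (0.511 to 1.02). With scaling by bins without a region the sums gave 0.711 (0.478 to 1.04) in the gene and 0.910 (0.681 to 1.21) past it. In these sums a lead of STAT3 in or past the gene was therefore within counting error by either route. The first route leaves out sites of STAT3 only. The site 1.00 kb into the gene kept its STAT3 lead with that scaling (ratio 0.356, 0.143 to 0.778). Before the start STAT5 stayed ahead in sum, at 1.47 (1.30 to 1.66) over the 4 sites of both antibodies. With scaling by bins it was 1.99 (1.77 to 2.25). That lead was carried by the sites 11.4 and 25.3 kb before the start. The sites 0.30, 31.2 and 37.4 kb before it had ratios of 0.916, 1.09 and 0.716, with intervals that include 1. The sites past the end were low, with 14 to 42 STAT3 and 6 to 24 STAT5 reads, and the tallest of them, 31.7 kb from the start, had 42 and 24. The 2 tallest windows of each library held 52.2% of the STAT3 and 71.8% of the STAT5 reads summed over the Tbx21 sites. Without the tallest site the ratio of the gene was 1.06 (0.926 to 1.22), which includes 1.

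**Figure D2:**
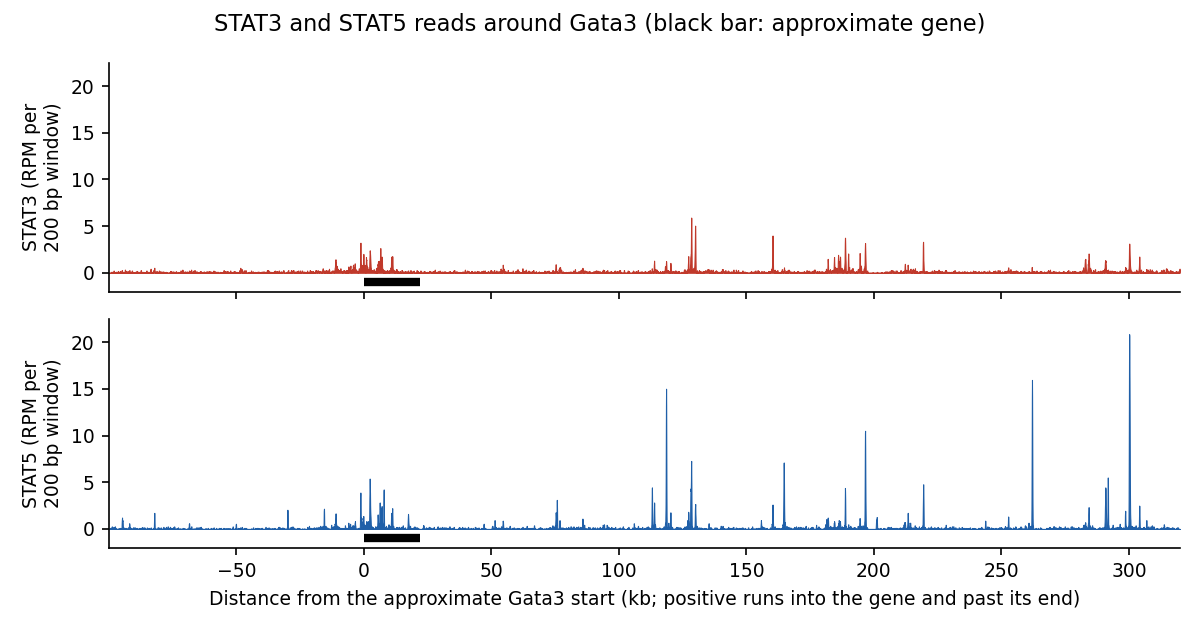
STAT3 (top) and STAT5 (bottom) RPM in 200 bp windows moved by 50 bp, against the distance in kb from the approximate start of Gata3, with the gene as a black bar. The tallest STAT5 peaks, up to 20.9 RPM, lie more than 100 kb past the start, and STAT3 stays at or below 5.92 RPM at every site.

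At Gata3, 31 of the 42 sites lay past the end of the gene, 5 in it and 6 before it. The tallest was about 300.1 kb from the start and 278.1 kb past the gene's end, on chromosome 2 from 9499551 to 9500150. It held 64 STAT3 and 375 STAT5 reads, 3.08 and 20.9 RPM, and was 6.78 times higher with STAT5 (5.19 to 8.98). This height put it at the 99.5th percentile of all sites for STAT5 and the 80.7th for STAT3. With 375 of 400 positions taken the ratio is compressed, and the correction for positions taken raised it to 18.4.

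The site 262.0 kb from the start, from 9537751 to 9538250, was the most one-sided of the tall sites. There 287 STAT5 reads (16.0 RPM) met 8 STAT3 reads (0.385 RPM), a ratio of 41.5 (20.8 to 97.1) that stood at the 96.3rd percentile of all sites. The STAT5 reads formed a smooth peak, with 31, 66, 76, 80, 65 and 34 reads in the 6 central bins of 50 bp, where STAT3 had 5, 5, 1, 2, 0 and 0. Its strands were even, with 146 of 287 STAT5 reads on the plus strand.

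Further tall sites followed toward the gene. At 291.7 kb, from 9508101 to 9508450, 99 STAT5 reads met 7 of STAT3 (ratio 16.4, 7.65 to 41.8). At 196.5 kb there were 189 STAT5 and 66 STAT3 reads (3.31, 2.49 to 4.45), and at 164.6 kb there were 128 and 9 (16.5, 8.40 to 36.8). The site at 118.5 kb, from 9681251 to 9681750, held 270 STAT5 and 26 STAT3 reads and had a ratio of 12.0 (8.02 to 18.7). All these sites were called higher with STAT5. The STAT5 level at the sites at 262.0 and 118.5 kb was within 1.5 times that at the tallest Tbx21 site, while STAT3 there was 0.385 and 1.25 RPM against 14.0 RPM.

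Not every distal Gata3 site was of this kind. At 128.3 kb, from 9671451 to 9672050, stood the site with most STAT3 reads at this gene, 123 against 131 of STAT5 (ratio 1.23, 0.956 to 1.59). Its neighbour 129.9 kb from the start, from 9669951 to 9670300, showed 105 reads of STAT3 and 47 of STAT5 (0.518, 0.359 to 0.737). It was a region of STAT3 only, and its ratio was 0.717 (0.497 to 1.02) with scaling by bins without a region. These neighbours and the STAT5 site at 118.5 kb thus stood near each other with different balances. At 219.3 kb the counts were 69 and 86, a ratio of 1.44 (1.04 to 2.01). A single site, picked out after its values were seen, was called higher with STAT3: 189.9 kb from the start, from 9610001 to 9610200, it held 43 STAT3 and 8 STAT5 reads. Its ratio was 0.215 (0.0874 to 0.463), and the call was lost with a shift of 75 bp, with scaling by bins without a region and with exact matches only.

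Near the Gata3 start both antibodies gave moderate sites. The nearest, 1.35 kb before the start, from 9801201 to 9801550, showed 67 reads of STAT3 and 70 of STAT5, 3.22 and 3.90 RPM, and a ratio of 1.21 (0.852 to 1.72). In the gene, 2.30 kb from the start and from 9797501 to 9797950, there were 50 STAT3 and 96 STAT5 reads (2.22, 1.56 to 3.19). This site became a STAT5 call with scaling by bins without a region (3.07) or with an interval beyond 1.5-fold as the limit. Compared with the site nearest the Tbx21 start, the nearest Gata3 site held more reads of both STATs, 67 against 24 and 70 against 19. A site 7.80 kb into the gene, picked out after its values were seen, showed 6 reads of STAT3 and 76 of STAT5 and was 14.7 times higher with STAT5 (6.43 to 41.2). The ratio of summed reads was 2.69 (2.50 to 2.90) past the end, 2.14 (1.75 to 2.62) in the gene and 2.21 (1.76 to 2.78) before it. Over the sites of both antibodies it was 2.46 (2.24 to 2.70) past the end, but 1.25 (0.780 to 2.01) at the only such site in the gene and 1.17 (0.874 to 1.56) at the 2 before it, where the intervals include 1.

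**Figure D3:**
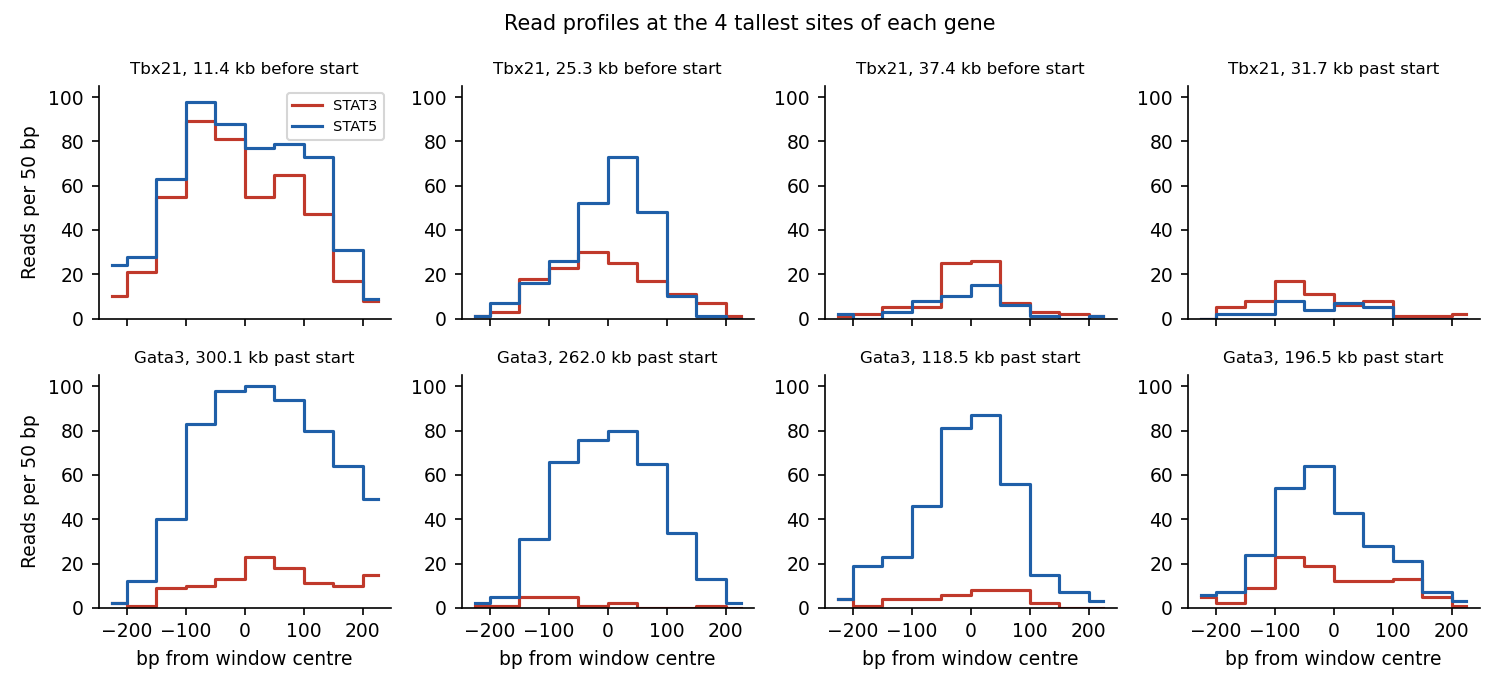
Reads in bins of 50 bp around the centre of the best window, in the direction of the gene, at the 4 sites of each gene with the highest RPM of either library (STAT3 red, STAT5 blue). STAT3 and STAT5 overlap at the tallest Tbx21 site, with 290 and 342 reads in 200 bp, whereas at the Gata3 site 262.0 kb past the start 287 STAT5 reads stand over 8 of STAT3.

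The sites of the 2 genes were then set side by side. A site was called higher with 1 antibody when the 95% interval of the ratio lay wholly beyond 2-fold. Over all 86150 sites, 26.5% were called higher with STAT5 and 2.75% higher with STAT3. At Gata3, the STAT5 call was made at 17 of 42 sites (40.5%) and the STAT3 call at 1, and at Tbx21 none of 14 was called either way. A count of 0 in 14 allows a share of up to about 21.4%, by an approximate 95% limit that takes sites as independent. As the sites share a locus and the same libraries, this limit is not set against the share of all sites. With the libraries scaled by bins without a region, which raises every ratio 1.38 times, the numbers were 19 and 0 at Gata3 and 1 and 0 at Tbx21, and the correction for positions taken also gave 1 STAT5 call at Tbx21. The median ratio was 0.720 over the Tbx21 sites and 2.27 over the Gata3 sites, against 1.29 over all sites. STAT5 RPM was above STAT3 RPM at 3 of 14 Tbx21 sites and at 35 of 42 Gata3 sites. These medians and counts include sites that entered through 1 antibody alone, which moves the 2 genes apart. Over the sites of both antibodies the medians were 0.910 and 1.23, and STAT5 RPM was higher at 3 of 8 and 13 of 15. With scaling by bins the counts over all sites of each gene were 7 of 14 and 38 of 42, and the medians 0.996 and 3.14. The share called and the median over all 86150 sites were not recounted with this scaling, which raises that median too. The values with scaling by bins are therefore not to be set against 26.5% or 1.29.

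**Figure D4:**
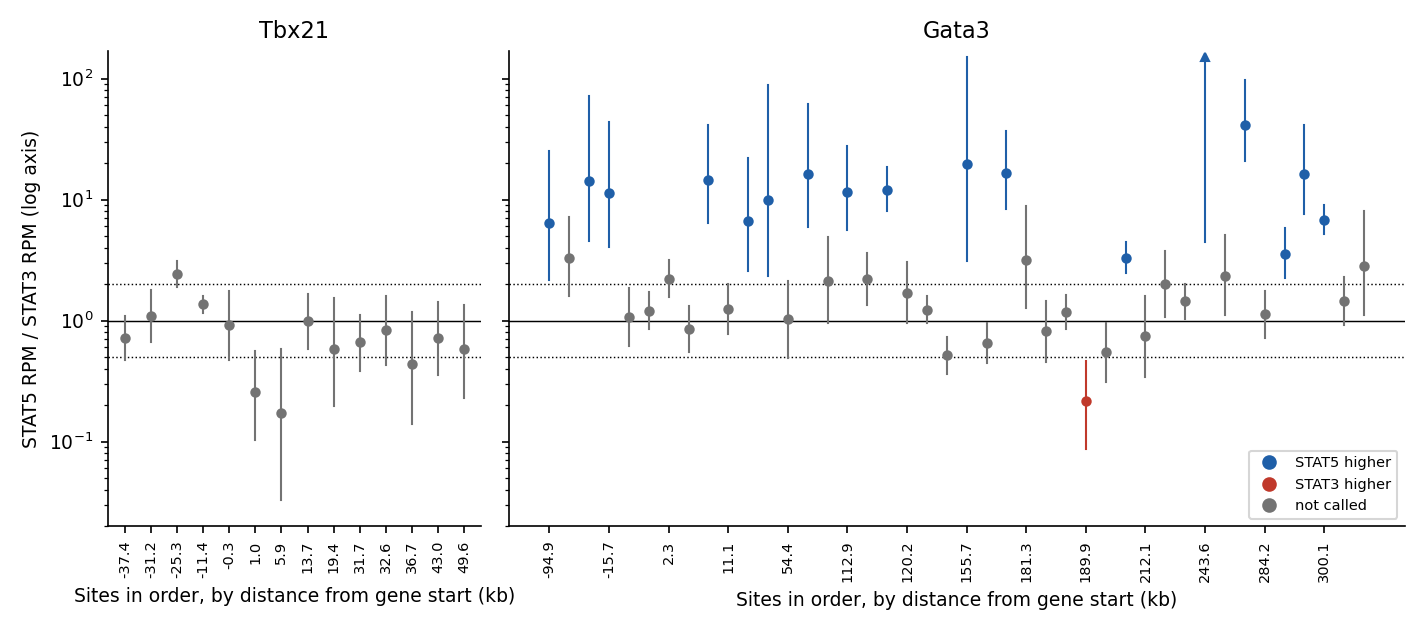
Ratio of STAT5 to STAT3 RPM at each site on a log axis, with exact 95% intervals that cover counting error and are drawn up to 150, ordered by distance from the gene start. Dotted lines mark 2-fold either way, colours mark calls, and the triangle is a site with 0 STAT3 reads. The Tbx21 ratios run from 0.174 to 2.42 and the Gata3 ratios from 0.215 to 41.5 where STAT3 had a read.

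The quotient of the gene ratios was 2.18 (1.93 to 2.47), and the sites that entered through 1 antibody alone widen it. Over the sites of both antibodies it was 1.69 (1.46 to 1.94), still above 1 by more than counting error. Of the 15 such Gata3 sites, 4 were called higher with STAT5, at 118.5, 196.5, 290.75 and 300.1 kb from the start. The median ratio over the 15 was 1.23, so the sum does not stand for each site. The highest quotient, 3.54, came from a minimum of 8-fold for regions, which raised the Gata3 ratio to 4.78. Since the Gata3 window is longer, it was also limited to the reach of the Tbx21 window, 57 kb past the start and 43 kb before it. This left 11 Gata3 sites, 5 of them higher with STAT5, a ratio of 2.05 (1.76 to 2.38) and a quotient of 1.73 (1.44 to 2.08). All these 5 were regions of STAT5 only. The 4 sites of both antibodies in this reach summed to 152 reads of STAT3 and 154 of STAT5 (ratio 1.17, 0.931 to 1.48), and the quotient against the 8 such Tbx21 sites was 0.882 (0.682 to 1.14). In these sums a balance further toward STAT5 than at Tbx21 was thus not seen near the gene at sites of both antibodies. By site the order was reversed, with a median ratio of 1.14 at these 4 and 0.910 at the 8 Tbx21 sites. STAT5 RPM was higher at 4 of the 4 and at 3 of the 8. Keeping only sites of both antibodies also drops one-sided sites, so it cannot settle the balance near the gene.

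**Figure D5:**
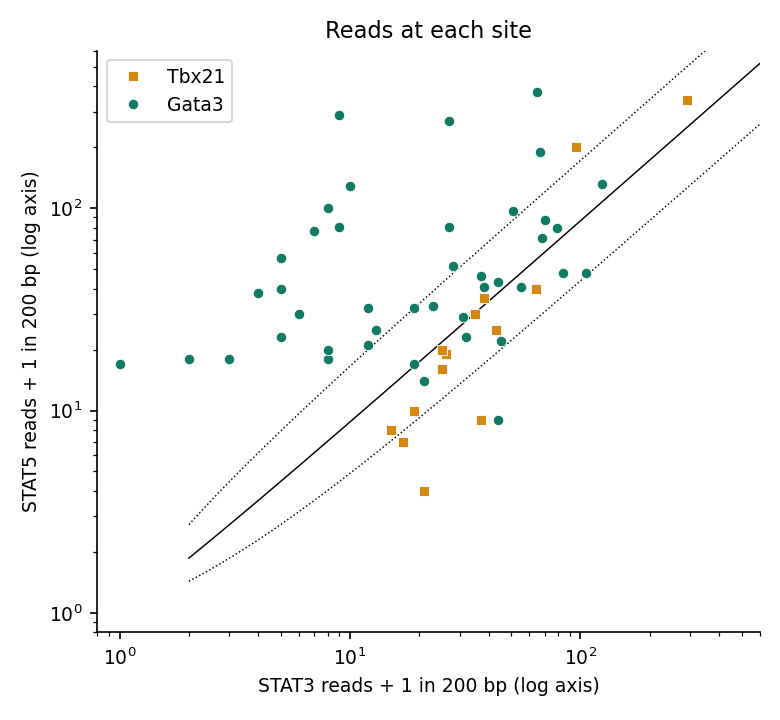
STAT3 and STAT5 reads plus 1 at the best 200 bp window of each site, on log axes, for the 14 Tbx21 sites (squares) and the 42 Gata3 sites (circles). The solid line marks equal RPM and the dotted lines 2-fold either way. A group of Gata3 sites lies far above the lines at low STAT3 counts, and 11 of the 14 Tbx21 sites lie below the solid line, or 7 of 14 with scaling by bins without a region.

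The 17 Gata3 sites called higher with STAT5 were chosen by their ratio, which fixes a STAT3 level low relative to STAT5, so their values are a description. They held 16 to 375 STAT5 reads (median 76) and 0 to 66 STAT3 reads (median 6). At 13 of them STAT3 had fewer than 10 reads, and at 7 it was under 2 times the mean of 2.37 reads per 200 bp outside the sites. Of the 17, 13 were regions of STAT5 only and 4 of both antibodies. One site, 243.6 kb from the start, had 16 STAT5 and 0 STAT3 reads. With 3 STAT3 reads put in place of 0 it would be 6.17-fold higher with STAT5, and its exact interval began lower, at 4.46. The 24 uncalled Gata3 sites held a median of 33.5 STAT3 and 36 STAT5 reads.

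Lower sites of the same kind, picked out after their values were seen, lay on both sides of Gata3. Before the start, 39 STAT5 reads met 4 of STAT3 at 15.65 kb and 37 met 3 at 30.0 kb, ratios of 11.3 (4.07 to 43.5) and 14.3 (4.52 to 72.3). Past the end, 56 met 4 at 75.65 kb and 80 met 8 at 112.95 kb. Some neighbouring sites had different balances, with intervals of the ratio that did not overlap. The site at 290.75 kb had 80 STAT5 and 26 STAT3 reads (ratio 3.56, 2.26 to 5.78) beside the one at 291.7 kb with 99 and 7, and both were called higher with STAT5. At 188.65 kb, next to the site called higher with STAT3, 78 STAT3 reads met 79 of STAT5 (1.17, 0.846 to 1.62). At 160.25 kb 83 STAT3 reads met 47 of STAT5 (ratio 0.655, 0.448 to 0.948), and at the neighbouring site at 164.6 kb 9 met 128.

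By the calls within each library, Tbx21 had 13 STAT3 and 9 STAT5 regions and Gata3 had 22 and 35. Of the Tbx21 sites 8 were regions of both, 5 of STAT3 only and 1 of STAT5 only. The Gata3 sites divided into 15, 7 and 20. Over all sites 47.7% were regions of both, 18.2% of STAT3 only and 34.1% of STAT5 only. Both windows were dense: 140.0 sites per Mb at Tbx21 against 54.1 on chromosome 11, and 100.0 at Gata3 against 41.5 on chromosome 2.

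Outside the sites the direction turned with the scaling. By nuclear reads Tbx21 had 3.56 STAT3 and 2.83 STAT5 reads per 200 bp, a ratio of RPM of 0.920 (0.854 to 0.991), and Gata3 had 2.37 and 1.58, a ratio of 0.773 (0.738 to 0.810). With scaling by bins without a region STAT5 was ahead at both, with 1.27 (1.18 to 1.37) at Tbx21 and 1.07 (1.02 to 1.12) at Gata3. Genome-wide means were 1.76 and 1.52 reads. Reads outside sites include the peaks that the local mean left out. There were 11 such peaks at Tbx21, with up to 166 STAT5 reads, and 14 at Gata3, with up to 35. How far they set the difference between the genes was not tested. The sites held 35.8% of the STAT3 and 42.1% of the STAT5 reads of the Tbx21 window, and 26.9% and 53.2% of those of the Gata3 window. Counted over the whole window, all reads gave a ratio of 1.04 (0.983 to 1.10) at Tbx21 and 1.25 (1.21 to 1.30) at Gata3.

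Where both antibodies gave enough reads, the median positions of their reads were compared. Both medians were taken in the same span, centred on the window with the highest summed RPM, so small differences are partly built in. The comparison therefore cannot show that the 2 antibodies mark the same position. At the 14 sites with 50 or more reads of each in 400 bp, the median positions of STAT3 and STAT5 differed by 0 to 66 bp, with a median of 18.8 bp, and by 25 bp or less at 9. The 2 Tbx21 sites among them, 11.4 and 25.3 kb before the start, differed by 16 and 21.5 bp. At the tallest Gata3 site the difference was 7 bp, where STAT5 reads filled 375 of the 400 possible positions. The 14 include sites that were regions of 1 antibody only, such as the one 129.9 kb from the Gata3 start, with a difference of 0 bp.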

How the data were processed

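The authors deposited 1 list of aligned reads per library, on mm9 per the submitters' processing notes; the aligner and any filter were not given in the sources used here. The deposited score was 0 in every line and not used. Read 5′ ends were shifted by 50 bp and counted in 200 bp windows moved by 50 bp. Windows with at least 5 reads, a count 4-fold or more above each of 3 means (5 kb, 10 kb, genome-wide), and an adjusted Poisson p (Benjamini-Hochberg, over all windows with a read) at or below 1e-05 were joined within 100 bp. Regions with over 80% of summit reads on 1 strand were dropped. Overlapping regions of the libraries formed sites, counted in the window with the highest summed RPM, and ratios carry exact conditional (Clopper-Pearson) 95% intervals. Quotients carry the exact conditional interval of an odds ratio. Named are the site nearest each start and the 10 tallest per gene; the Tbx21 sites 32.6 and 43.0 kb from the start had 25 and 24 STAT3 and 18 and 15 STAT5 reads. Reads outside sites were counted over 200 bp away from any site. Scripts ran in Python 3.11.15 with scipy 1.17.1, numpy 2.4.6, matplotlib 3.10.9 and pandas 2.3.3, and the caller was tested on simulated data. Genes and rules were chosen with earlier results of these data known. Promoter sequences are from RefSeq, with both genes matched; the TTCC search was added after the sequences were seen.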

Additional observations from a re-analysis of the deposited data

How the results depend on the processing

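No paired analysis was possible because there was 1 library per antibody. The limits to a Gata3 reach equal to that of Tbx21, the removal of the tallest site of each gene, the restriction to regions of both antibodies, the removal of reads outside sites, and the alternatives for the sums before, in and past each gene and for reads outside sites were chosen after seeing the data; the other alternatives were planned. Of the planned recalculations for the genes, 65 stayed within 1.5 times for a count or within the interval for a ratio, and 23 moved. Sites at Tbx21 numbered 7 with a minimum of 8-fold, 8 at an adjusted p of 1e-10 and 25 with the genome-wide mean alone. Sites at Gata3 numbered 19 with 8-fold and 11 at equal reach, where 5 were higher with STAT5. Higher with STAT5 at Tbx21 was 1 site under scaling by 10 kb bins without a region, under the correction for positions taken and with an interval beyond 1.5-fold. Higher with STAT3 there was 1 with exact matches only and with 400 bp, and 2 beyond 1.5-fold. At Gata3 no site (0) was higher with STAT3 with a shift of 75 bp, 8-fold, scaling by bins, exact matches only or equal reach. The Tbx21 ratio moved to 1.35 with 8-fold, 1.63 with scaling by bins, 1.47 with the correction, 1.06 without the tallest site and 1.33 for regions of both. The Gata3 ratio moved to 4.78 with 8-fold, 2.32 with the genome-wide mean alone, 3.57 with scaling by bins, 3.51 with the correction, 2.05 at equal reach, 2.36 without the tallest site and 2.24 for regions of both. The quotient moved to 3.54 with 8-fold, 1.87 with the genome-wide mean alone, 1.73 at equal reach and 1.69 for regions of both. At equal reach and for regions of both together the quotient was 0.882 and so turned, with an interval (0.682 to 1.14) that includes 1. Outside sites the ratio turned to 1.27 at Tbx21 and 1.07 at Gata3 with scaling by bins. No other value whose interval excluded 1 turned. Ratios of some named sites with intervals that include 1 crossed it. The Tbx21 sites 32.6 kb past and 0.30 kb before the start went from 0.833 and 0.916 to 1.15 and 1.27 with scaling by bins. With the same scaling the Tbx21 site 13.7 kb into the gene went from 0.987 to 1.37. That 43.0 kb past the start went from 0.723 to 1.0005. The Tbx21 site 31.2 kb before the start went from 1.09 to 0.977 over 400 bp. Sites lost with 8-fold follow from the threshold; otherwise the cause was not tested. Of the named sites, 7 were not found with 8-fold and 2 at 1e-10; in 193 recalculations of their ratios the value stayed within its interval and in 8 it moved. Depth limits the low sites most, where a few reads decide the ratio.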

Other observations

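With the genome-wide mean alone, 14 more peaks appeared at Gata3, with 2 to 37 STAT3 and 5 to 35 STAT5 reads, and none was called higher with either antibody. The widest stretch of the Gata3 window without a site spanned 51.85 kb, between sites 30.0 and 82.2 kb before the start. The next widest, 33.65 kb, lay between sites 17.3 and 51.2 kb past the start. At Tbx21 the widest was 13.45 kb, between the sites 11.4 and 25.3 kb before the start, and it holds the peak 13.5 kb before the start that the local mean left out.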
